A study of Mus musculus with 16 samples.

Results

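Liver of wild-type mice was compared with wild-type embryonic stem (ES) cells on Affymetrix U74Av2 oligonucleotide arrays, with 1 array per sample. The comparison holds 8 of the 16 arrays of the series, chosen by their source labels: 2 arrays of +/+ liver, 3 of the ES line ESVJ and 3 of the ES line E14. The livers came from mice whose background mixed 129/SvJ with C57BL6/J, and had been frozen before RNA was isolated with RNeasy. ESVJ, the +/+ parent of the Abca1 +/- ES line of the series, had been kept on irradiated embryonic fibroblast feeders, which were removed before the cells were put on gelatin, and its RNA was isolated with Trizol and RNeasy. E14, the +/+ control of the Cdk4 +/- ES line, grew without feeders, and its RNA was isolated with RNeasy. No group of the comparison carried a named mutation or received a named agent, and neither the age nor the sex of the mice is given in these sources. Each ES group is a single cell line. No label says that arrays of a group came from separate mice or cultures, so the p-values measure the spread between these arrays, which may be technical. Tissue, freezing and RNA isolation differ together between the livers and ESVJ and cannot be told apart. The other 8 arrays (2 Abca1 +/- livers, 3 Abca1 +/- ES and 3 Cdk4 +/- ES samples) were used only to look at the same contrast in arrays that the calls had not used.

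Liver and ES cells stand far apart in biology. Hepatocytes, the main cells of the liver, are long-lived, rarely divide, secrete most plasma proteins, and carry out bile acid synthesis, detoxification, urea formation, gluconeogenesis and fatty acid oxidation. Their gene programme is held by factors such as HNF4A, the FOXA proteins and C/EBPα. ES cells are derived from the inner cell mass of the blastocyst, keep the ability to form all tissues through a network around the factors OCT4 (gene Pou5f1), NANOG and SOX2, and divide fast with a short G1 phase. Both kinds of cell need ribosomes, proteasomes, mitochondria and protein folding.

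The values are signals of probe sets (groups of short oligonucleotides for 1 transcript) on a linear intensity scale. Each array was rescaled to a trimmed mean of 500, and differences are on the log2(signal + 32) scale, which understates the change of genes with a low signal on either side. Signals of single probe sets are not compared with each other. Where signals are summed over genes, each probe set counts by its own signal strength, and the same sum is read across arrays. The median signal of an array lay between 126.1 and 128.5 in the livers and between 153.8 and 169.1 in the ES arrays. Over the 7802 probe sets tested, Pearson's r between log2 values was 0.966 for both livers, 0.964 to 0.979 within an ES line, 0.874 to 0.902 between the lines and 0.255 to 0.303 between liver and ES arrays. These values depend on the set, since probe sets low in both tissues were not tested. Over all probe sets but the controls, r was 0.927 to 0.946 between the lines and 0.582 to 0.619 between liver and ES arrays. The ratio of the 3′ to the 5′ control probe set of β-actin was 1.78 and 1.81 in the livers and 1.12 to 1.27 in the ES arrays, and the part of this difference in the results was not tested.

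The labels held against the defining markers of each side. Albumin (Alb), the main plasma protein made by hepatocytes, had signals of 45743 and 58581 in the livers, 122, 126 and 156 in ESVJ and 72.5, 83 and 67.6 in E14. Carbamoyl-phosphate synthase 1 (Cps1), which starts the urea cycle, had signals of 26372 and 24420 in the livers and from 91.5 to 215 (median 127) in the 6 ES arrays. Pou5f1 read 13.4 and 5.76 in the livers, 9114, 11273 and 11649 in ESVJ and 6497, 7551 and 7205 in E14. Nanog read 74.3 and 70.2 in the livers and from 3554 to 8616 (median 5855) in the 6 ES arrays, and Sox2 36.9 and 32.9 in the livers and from 4716 to 7723 (median 5944) in the 6 ES arrays. Each of these genes separated the livers from all ES arrays with no overlap. Transthyretin (Ttr) was at 13380 and 13210 in the livers and at most 40.3 in ES arrays, and Zfp42 and Utf1, markers of undifferentiated ES cells, were under 100 in both livers.

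**Figure D1:**
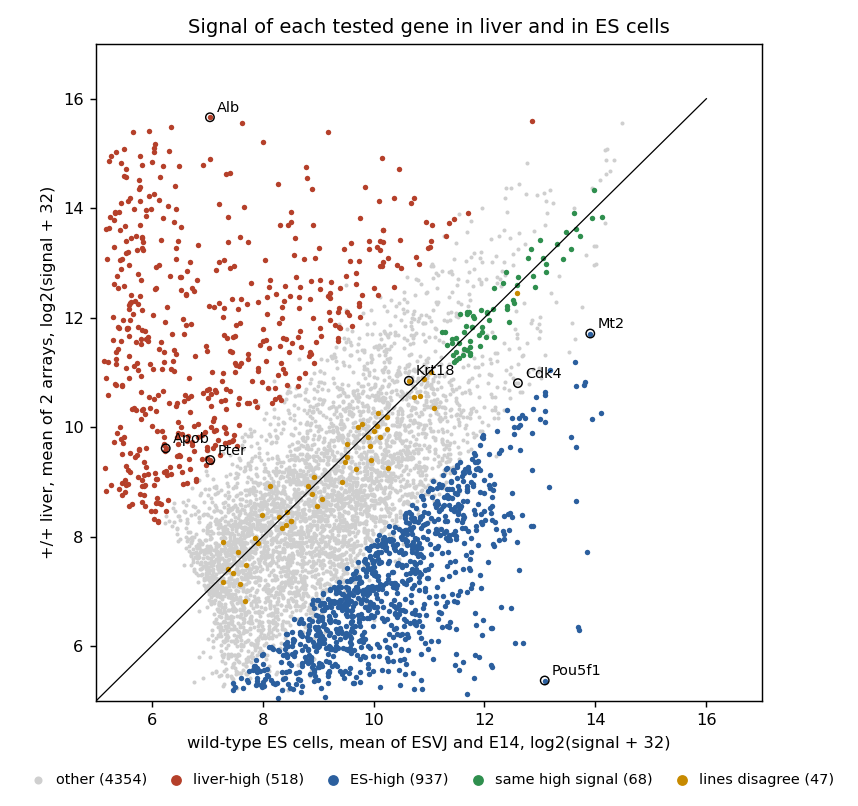
Mean log2(signal + 32) of each tested gene in the 6 wild-type ES arrays (horizontal axis) and in the 2 +/+ livers (vertical axis), 1 point per gene, coloured by class, with the line of equal signal. The 518 liver-high genes lie above the line with Alb at the top, the 937 ES-high genes lie below it with Pou5f1 at the bottom right, and the 68 genes of the same high signal lie along it.

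Apob, Pter, Mt2 and Cdk4 were followed as markers of the comparison. Apob encodes apolipoprotein B, the structural protein of very-low-density lipoprotein, and read 789 and 715 in the livers, 30.4, 52.9 and 59.8 in ESVJ and 37.8, 58.6 and 32.4 in E14. Its log2 differences were 3.32 ± 0.27 from ESVJ and 3.4 ± 0.27 from E14, with adjusted p-values of 1.52e-07 and 1.15e-07 by limma. Apob reached the mean signal of 100 needed for testing only through the livers, so these p-values are descriptive. Pter, which encodes a phosphotriesterase-related protein, read 772 and 535 in the livers, 91.6, 104 and 96.4 in ESVJ and 125, 92.4 and 99.9 in E14, with log2 differences of 2.38 ± 0.24 from ESVJ and 2.3 ± 0.24 from E14. Both genes were higher in both livers than in any ES array. Mt2 encodes metallothionein 2, a small metal-binding protein, and read 2508 and 4387 in the livers, 12390, 16949 and 17717 in ESVJ and 15083, 16281 and 14172 in E14, so that both livers were below all ES arrays (log2 differences of -2.21 ± 0.23 from ESVJ and -2.18 ± 0.23 from E14). In the Abca1 +/- livers Mt2 instead read 35119 and 14990, and with those livers in place of the +/+ livers its difference from the ES cells turned to 0.58. Cdk4, the cyclin-dependent kinase that drives cells through G1, read 1712 and 1800 in the livers, 6225, 7088 and 6821 in ESVJ and 5822, 5498 and 5827 in E14, with log2 differences of -1.91 ± 0.14 from ESVJ and -1.68 ± 0.14 from E14. A second Cdk4 probe set gave -2.96. For each of these genes the 2-against-6 exact permutation test, two-sided, gave p = 0.0714, the smallest value that its 28 splits allow. In the Abca1 +/- livers Apob was at 4555 and 3749 and Pter at 3162 and 3359, above the +/+ livers.

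The promoters of 3 of these genes are shown as those of a liver-restricted gene, another liver-high gene and a gene lower in liver, for the count of CG described further on. Each line gives 300 bases from RefSeq (GRCm38.p6), from 250 before to 50 after the start of the gene. Every CG is in capitals. Apob (chr12:7977427-7977726, plus strand) has 9 CG, Pter (chr2:12923791-12924090, plus strand) also has 9 and Cdk4 (chr10:127063285-127063584, plus strand) has 22.
Apob: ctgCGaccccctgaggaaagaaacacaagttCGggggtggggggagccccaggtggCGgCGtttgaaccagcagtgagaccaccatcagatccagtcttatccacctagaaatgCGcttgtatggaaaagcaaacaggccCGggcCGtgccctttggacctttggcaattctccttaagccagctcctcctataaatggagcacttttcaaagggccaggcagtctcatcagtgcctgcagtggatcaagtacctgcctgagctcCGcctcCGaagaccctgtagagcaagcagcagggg
Pter: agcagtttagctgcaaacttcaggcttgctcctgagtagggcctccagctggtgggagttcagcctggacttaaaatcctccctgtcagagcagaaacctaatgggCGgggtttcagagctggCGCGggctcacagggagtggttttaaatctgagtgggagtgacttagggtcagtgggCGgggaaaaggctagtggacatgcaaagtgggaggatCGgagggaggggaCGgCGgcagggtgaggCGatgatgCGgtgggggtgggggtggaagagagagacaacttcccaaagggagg
Cdk4: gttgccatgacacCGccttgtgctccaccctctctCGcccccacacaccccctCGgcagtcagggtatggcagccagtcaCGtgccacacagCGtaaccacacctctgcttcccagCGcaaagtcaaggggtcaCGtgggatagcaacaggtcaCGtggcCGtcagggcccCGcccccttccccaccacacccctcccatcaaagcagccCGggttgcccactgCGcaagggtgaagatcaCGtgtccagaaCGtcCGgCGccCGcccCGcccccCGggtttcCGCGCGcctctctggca

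**Figure D2:**
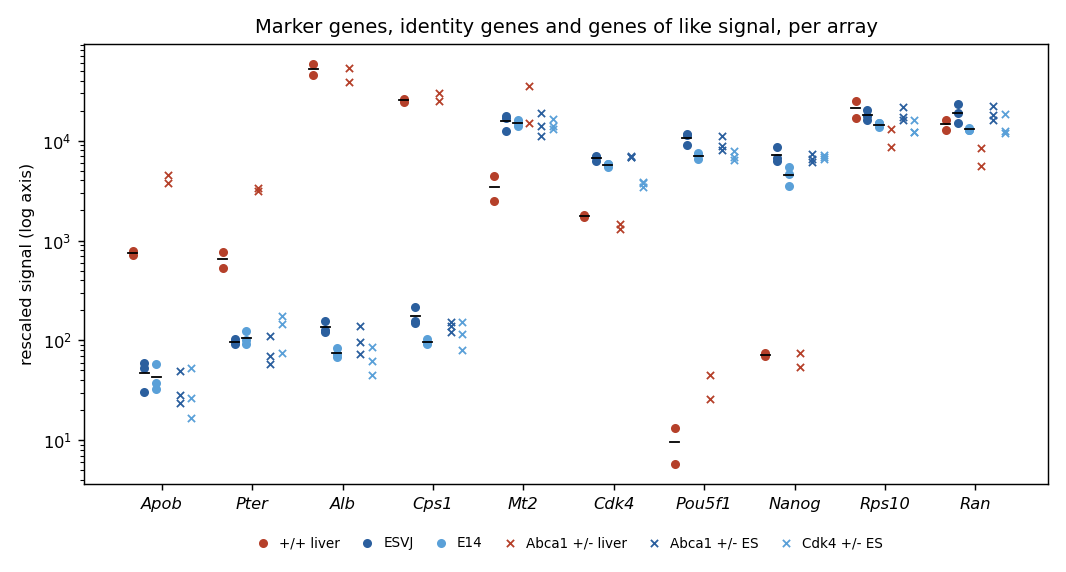
Rescaled signal (log axis) of 10 genes in each array: circles are the arrays of the comparison with their mean as a bar, crosses the other 8 arrays. Apob, Pter, Alb and Cps1 are higher in all livers than in all ES arrays, Pou5f1, Nanog and Cdk4 are lower, Rps10 and Ran overlap between the livers and ES arrays of the comparison, and Mt2 is lower in the 2 +/+ livers but not in the 2 Abca1 +/- livers.

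Most probe sets differed between liver and ES cells. Of 7802 probe sets tested, 1649 (21.1%) were higher in liver than in both ES lines and 3250 (41.7%) were lower, at an adjusted p under 0.05 for each line by limma. The livers did not overlap with the ES arrays in 5421 probe sets (69.5%). The split by direction rests on the scale, since the median probe set was at -0.43: the higher calls were 33.7% of all calls here, 45.5% after scaling on the array median (2261 higher, 2703 lower) and 44.1% after quantile normalisation (2191 higher, 2777 lower). A further 55 probe sets (0.705%) passed with opposite signs against the lines. Per gene, with each gene represented by its brightest probe set, 1269 of 5924 genes (21.4%) were higher in liver, 2553 (43.1%) were lower, and 47 (0.793%) passed with opposite signs against the lines. The median gene was at -0.49.

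Genes at least 4-fold higher in liver than in both lines, called liver-high here, numbered 518 (8.74% of genes tested). Genes at least 4-fold lower, called ES-high, numbered 937 (15.8%). Just inside and outside the 4-fold limit (log2 of 2) were Copz2 at 2.004 and Dgcr6 at 1.998 on the liver side. On the ES side, Plcd1 was inside at 2.001. Summed over genes, the liver-high genes made up 44.2% and 45.5% of the signal of the livers and 2.03% to 2.2% of that of the ES arrays. The ES-high genes made up 2.01% and 2.41% of the liver signal and 27.6% to 29.6% of the ES signal. Within these classes, 187 genes were restricted to liver, with at least 500 in both livers and under 100 in every ES array, and 172 genes were restricted to ES cells by the same limits. These shares and classes follow from the rule that formed them.

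Gene lists by function were read against the 21.4% of all genes that were higher and the 43.1% that were lower in liver. A gene with little signal on one side passed the filter on mean signal only through its level on the other. The counts of the liver lists and of the ES lists therefore describe the members measured and cannot show more than that. The plot of the list members gives the whole set.

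**Figure D3:**
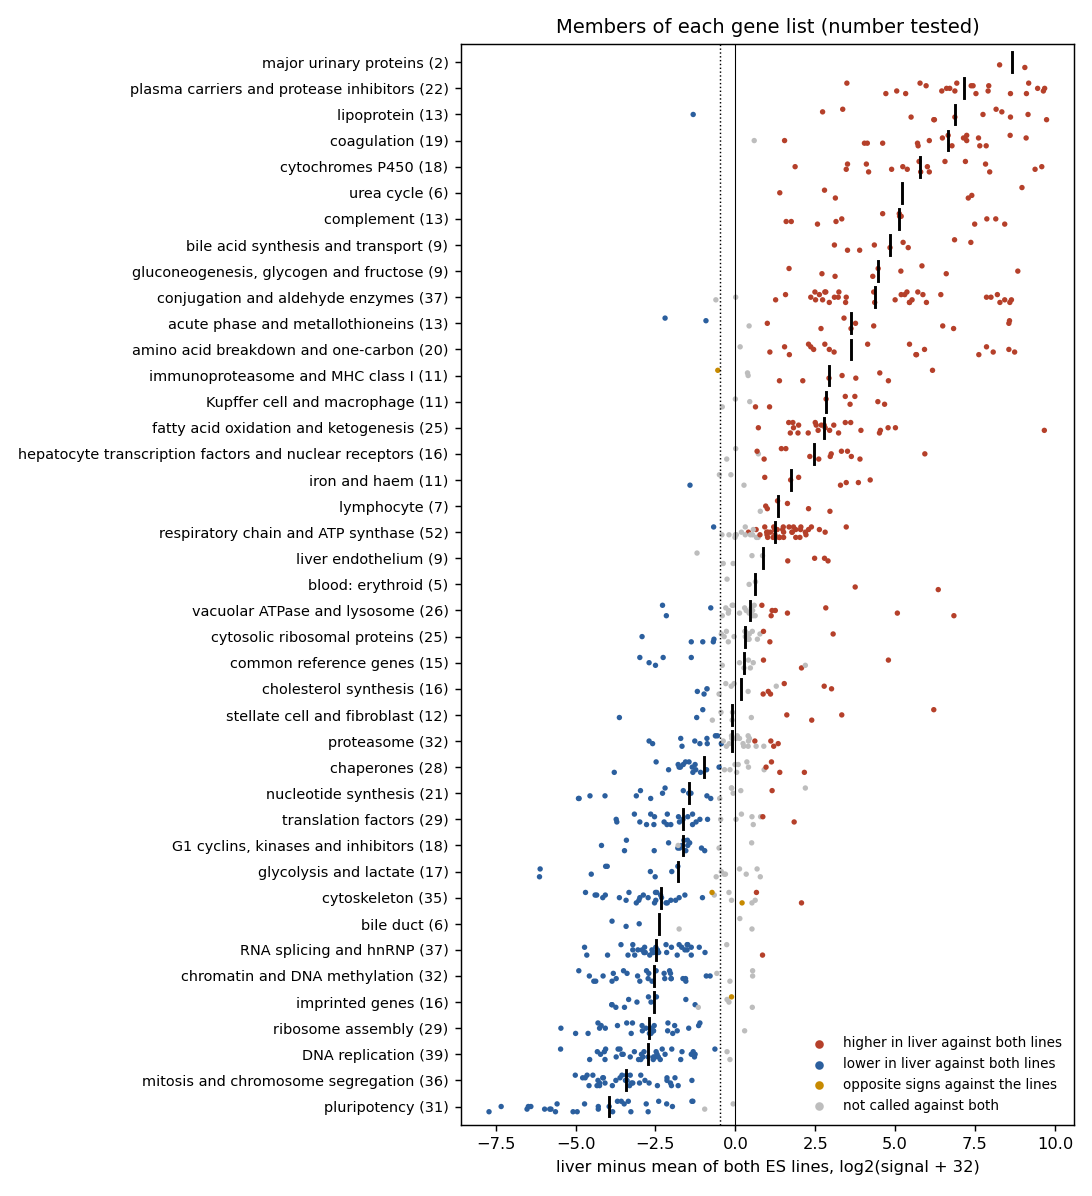
Liver minus the mean of both ES lines (log2(signal + 32) scale) for each tested member of each gene list, 1 point per gene, with the list's median as a bar and the median of all genes (-0.49) as a dotted line. Medians run from 8.66 for the major urinary proteins to -3.95 for the pluripotency genes, and the respiratory chain (1.24), the ribosomal proteins (0.31) and the proteasome (-0.11) lie between.

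Plasma proteins were higher in liver. Of 23 plasma carriers and protease inhibitors on the array, 22 were tested and 22 were higher in liver, each at least 4-fold, with a median of 7.16. Serpina1b, an α1-antitrypsin that inhibits elastase, read 40437 and 46852 in the livers and from 23.1 to 37.8 (median 29.6) in the 6 ES arrays, and its probe set is of a kind that can also detect the other Serpina1 copies. Ambp, the precursor of α1-microglobulin and bikunin, read 25309 and 35063 in the livers and from 4.33 to 7.4 (median 5.15) in the 6 ES arrays. The retinol carrier Rbp4 read 23935 and 30567 in the livers and from 12.8 to 18.5 (median 14.4) in the 6 ES arrays, and haemopexin (Hpx), which binds free haem, read 28543 and 39380 in the livers and from 3.6 to 25.9 (median 4.36) in the 6 ES arrays. In each of these genes both livers were far above the highest ES array. Of the coagulation factors 18 of 19 were higher in liver, with a median of 6.66. Prothrombin (F2) read 10987 and 11566 in the livers and from 4.8 to 52.9 (median 23.9) in the 6 ES arrays, antithrombin (Serpinc1) 20569 and 29776 in the livers and from 8.6 to 23.6 (median 12.3) in the 6 ES arrays and the fibrinogen γ chain (Fgg) 13627 and 15778 in the livers and from 1.77 to 20.2 (median 3.28) in the 6 ES arrays. Protein S (Pros1), which was not called, had a mean of 311 in liver, 178 in ESVJ and 215 in E14. All 13 complement genes tested were higher in liver (median 5.13), among them C4bp, which restrains the classical pathway, at 9361 and 9851 in the livers and from 4.83 to 43.6 (median 27.7) in the 6 ES arrays, and C8g at 25007 and 32330 in the livers and from 60.8 to 127 (median 93.5) in the 6 ES arrays. Cfb and Masp1 fell below the signal filter.

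Albumin is shown with a stretch that matches the left part of the recognition sequence of HNF1, a homeodomain factor of hepatocytes. The letters searched were GTTAATNAT on either strand. The full palindromic site of HNF1 had been searched before and had no match among the genes tested, and the shorter form was chosen after that was seen. In the Alb promoter (chr5:90460620-90460919, plus strand, GRCm38.p6, RefSeq) the match, in capitals, starts 32 bases before the start of the gene.
Alb: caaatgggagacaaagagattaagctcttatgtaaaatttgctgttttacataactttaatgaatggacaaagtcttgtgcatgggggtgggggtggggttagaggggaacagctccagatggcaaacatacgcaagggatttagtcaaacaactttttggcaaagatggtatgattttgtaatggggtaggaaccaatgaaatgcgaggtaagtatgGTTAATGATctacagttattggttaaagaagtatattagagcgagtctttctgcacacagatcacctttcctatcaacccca

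The shorter form was found in 19 of the 430 liver-high genes with a promoter in the table (4.42%), in 2 of 774 ES-high genes (0.258%), in 30 of all 4789 tested genes (0.626%) and in 0.836% of all 27025 promoters in the table. The 19 genes include the plasma protein genes Alb, Pzp, Cp, Afm, Fga, F13b, C4bp, Hc and Habp2, and the glucose-6-phosphatase gene G6pc and Igfbp1. A match is a string of letters and was not tested as a binding site.

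Lipoprotein genes were higher in liver in 12 of 13 cases (median 6.87). Apoa1, the main protein of high-density lipoprotein, read 36292 and 51535 in the livers, 18.7, 17.9 and 26.1 in ESVJ and 15.2, 21.8 and 12.5 in E14, with log2 differences of 9.68 ± 0.22 from ESVJ and 9.81 ± 0.22 from E14. Apoa2 read 19465 and 23603 in the livers and from 6.86 to 48.3 (median 20) in the 6 ES arrays, Apoc4 25273 and 39490 in the livers and from 17.9 to 30.8 (median 22.9) in the 6 ES arrays and Apoa5, which governs triglyceride clearance, 15911 and 20068 in the livers and from 12.4 to 33 (median 26.9) in the 6 ES arrays. Pltp, the phospholipid transfer protein, was the exception, with a mean of 286 in liver, 575 in ESVJ and 1012 in E14. Mttp, which loads lipid onto apolipoprotein B, fell below the filter on mean signal, at 385 and 201 in the livers and at most 34 in the ES arrays. Both tested major urinary protein genes, Mup3 and Mup5, which make the pheromone carriers of mouse urine, were higher in liver. Mup3 read 27974 and 44488 in the livers and from 15.6 to 81.4 (median 25.2) in the 6 ES arrays, on a probe set that members of this near-identical family may share.

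Acute phase genes and metallothioneins moved in both directions, with 10 of 13 higher and 2 lower (6 higher and 1 lower without liver 1). Hepcidin (Hamp), the hormone that limits iron uptake, read 21117 and 15194 in the livers and from 11.3 to 20.7 (median 16.3) in the 6 ES arrays, and the orosomucoid Orm1 read 15950 and 21777 in the livers and from 7.2 to 25.7 (median 17) in the 6 ES arrays. Serum amyloid P (Apcs) differed between the livers, at 6082 and 15919. The lower genes were the metallothioneins Mt2 and Mt1. Mt1 read 2642 and 5514 in the livers, 5066, 6641 and 7171 in ESVJ and 9911, 9505 and 6428 in E14, and like Mt2 it turned in the Abca1 +/- livers (27377 and 12354), to a difference of 1.34. The call of Mt1 was also lost without liver 1 (-0.39, against -0.92 for the mean of both lines) and without ESVJ 2, ESVJ 3 or E14 2 (-0.9, -0.87 and -0.88). Metallothionein genes are switched on by metals through the metal response element, whose core was searched as TGCGCNC or TGCACNC on either strand. The Mt2 promoter (chr8:94172368-94172667, plus strand, GRCm38.p6, RefSeq) holds 4 matches, in capitals, and the core was present in 35.3% of the promoters of all tested genes, so a match is common.
Mt2: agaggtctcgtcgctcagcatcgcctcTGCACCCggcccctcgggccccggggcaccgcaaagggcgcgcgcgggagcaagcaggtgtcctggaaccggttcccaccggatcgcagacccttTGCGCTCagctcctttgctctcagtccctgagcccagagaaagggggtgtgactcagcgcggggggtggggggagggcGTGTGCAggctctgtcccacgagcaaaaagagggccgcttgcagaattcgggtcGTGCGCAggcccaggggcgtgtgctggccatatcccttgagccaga

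Detoxifying enzymes were higher in liver nearly throughout. Of 22 cytochrome P450 genes on the array, 18 were tested and 18 were higher in liver (median 5.77). Cyp3a11, which oxidises many drugs and steroids, read 23507 and 35771 in the livers and from 3.43 to 31.3 (median 8.6) in the 6 ES arrays. Cyp1a2, which metabolises caffeine and aromatic amines, read 16591 and 13153 in the livers and from 19.2 to 37.3 (median 26.3) in the 6 ES arrays, and Cyp2d10 read 31061 and 38579 in the livers and from 8.4 to 20.9 (median 12.5) in the 6 ES arrays. Cyp1a1, Cyp2b9, Cyp2b13 and Cyp2j5 fell below the filter. Conjugation and aldehyde enzymes were higher in 35 of 37 cases (median 4.36). Alcohol dehydrogenase 1 (Adh1) read 17347 and 21147 in the livers and from 19.9 to 43.2 (median 27.7) in the 6 ES arrays, the carboxylesterase Ces3a 16126 and 18811 in the livers and from 7.93 to 17 (median 10.8) in the 6 ES arrays and retinal dehydrogenase Aldh1a1 21417 and 20281 in the livers and from 4.43 to 32.9 (median 27.5) in the 6 ES arrays. A second Aldh1a1 probe set showed a difference of 0.09. Adh5, the glutathione-dependent formaldehyde dehydrogenase present in most cells, read 7460 and 5079 in the livers, 7048, 8665 and 7503 in ESVJ and 4737, 4681 and 5080 in E14, with liver and ES arrays overlapping.

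Bile acid genes were measured in 9 cases and all 9 were higher in liver. Slc10a1, the transporter that takes bile acids up from blood, read 7977 and 7605 in the livers and from 17.7 to 87.6 (median 27.5) in the 6 ES arrays. Slc27a5, which activates bile acids for conjugation, read 8354 and 7607 in the livers and from 8.4 to 42.9 (median 13.5) in the 6 ES arrays. Cyp7a1, the rate-limiting enzyme of bile acid synthesis, was below the filter, with 164 and 155 in the livers and 5.73 to 61.1 in the ES arrays, and no test was made.

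Nitrogen and carbon metabolism showed the same direction. All 6 urea cycle genes tested were higher in liver, among them Arg1, which releases urea from arginine, at 25060 and 32311 in the livers, 12.7, 27 and 36.6 in ESVJ and 24.7, 12.9 and 40 in E14, and Otc at 8283 and 11285 in the livers and from 11.6 to 65.6 (median 20.9) in the 6 ES arrays. The mitochondrial ornithine carrier Slc25a15 had the ES signal spread by line, at 9581 and 5361 in the livers, 1305, 1211 and 1187 in ESVJ and 553, 577 and 402 in E14. Amino acid breakdown genes were higher in 19 of 20 cases (median 3.61). Tyrosine aminotransferase (Tat) read 14351 and 8696 in the livers and from 12.5 to 39.8 (median 24.2) in the 6 ES arrays, homogentisate dioxygenase (Hgd) 11858 and 9781 in the livers and from 8.33 to 21.2 (median 14.8) in the 6 ES arrays and betaine-homocysteine methyltransferase (Bhmt) 16352 and 15509 in the livers and from 9.13 to 52.9 (median 27.9) in the 6 ES arrays. The glycine decarboxylase Gldc, at means of 1375, 1106 and 1355 in liver, ESVJ and E14, was not called. All 9 tested genes of gluconeogenesis, glycogen and fructose were higher in liver, with fructose-bisphosphatase (Fbp1) at 26258 and 32955 in the livers and from 11 to 73.8 (median 30.9) in the 6 ES arrays and phosphoenolpyruvate carboxykinase (Pck1) at 5351 and 4696 in the livers and from 5.53 to 36.7 (median 22.1) in the 6 ES arrays.

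Fatty acid oxidation differed by smaller steps, since these genes also gave signal in ES cells. All 25 tested genes were higher in liver, 17 of them 4-fold or more, with a median of 2.78 and a range from 0.72 to 9.67. Acaa2, the mitochondrial thiolase, read 27896 and 34662 in the livers, 1156, 1090 and 1303 in ESVJ and 1145, 1230 and 762 in E14, with log2 differences of 4.68 ± 0.2 from ESVJ and 4.88 ± 0.2 from E14. Hadh, which carries out the step before the thiolase, read 8770 and 11263 in the livers and from 921 to 1184 (median 1012) in the 6 ES arrays. Fabp1, the fatty acid carrier of the liver, was near the floor in ES cells at 26509 and 37463 in the livers and from 4.3 to 12.6 (median 5.98) in the 6 ES arrays. Both livers were above all ES arrays in each case.

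Transcription factors of hepatocytes were higher in liver in 13 of 16 tested cases (median 2.47), and 5 more were on the array but below the filter. At a minimum mean signal of 200 in place of 100, 8 were higher. Hnf4a read 867 and 569 in the livers, 17.3, 19.8 and 19.8 in ESVJ and 7.3, 30.4 and 11.4 in E14. Its log2 differences were 3.85 ± 0.31 from ESVJ and 3.96 ± 0.31 from E14, with adjusted p-values of 1.06e-07 and 7.91e-08 by limma. Hnf4a passed the filter only through the livers, so these p-values are descriptive. Cebpa read 4850 and 4321 in the livers, 438, 408 and 355 in ESVJ and 338, 339 and 360 in E14, and Nr1h3, the liver X receptor α that senses oxysterols, read 3021 and 3943 in the livers and from 10.1 to 67.8 (median 23.5) in the 6 ES arrays. Foxa2 had means of 497, 37 and 35.2 in liver, ESVJ and E14, and Foxa3 of 411, 22.8 and 24.2. Cebpb separated from the lines unequally, with means of 969, 155 and 584. Cebpd, Nr5a2 and Rxra were not called; Nr5a2, which is also known in ES cells, had means of 423, 527 and 325.

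Genes of the immunoproteasome and MHC class I, which present peptides to T cells, were higher in liver in 8 of 11 cases (median 2.93), or in 3 when probe sets of types that can detect several genes were left out. The light chain B2m read 12270 and 14366 in the livers, 183, 302 and 112 in ESVJ and 887, 1139 and 1106 in E14, so that E14 lay above ESVJ and both lines far below liver. H2-K1 read 10530 and 9100 in the livers, 718, 651 and 601 in ESVJ and 1392, 1356 and 1293 in E14, and H2-D1 10058 and 10999 in the livers, 551, 457 and 605 in ESVJ and 1043, 984 and 1049 in E14, each on probe sets that related class I genes may share, and the other H2-K1 probe sets gave 2.52 and 0.19. H2-Q10, a class I gene known for secretion from the liver, read 20587 and 24003 in the livers and from 224 to 347 (median 272) in the 6 ES arrays. Tapbp, which loads peptide, passed with opposite signs, at means of 649 in liver, 459 in ESVJ and 1995 in E14.

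Growth factor signalling was looked at after the values were seen. Igf1, the growth hormone-dependent factor that the liver releases to blood, read 15358 and 17183 in the livers and from 6.33 to 50.9 (median 15.2) in the 6 ES arrays, and the growth hormone receptor Ghr 5064 and 6389 in the livers and from 50.8 to 119 (median 76.1) in the 6 ES arrays. Igf2, its fetal and imprinted relative, read 123 and 118 in the livers, 786, 643 and 665 in ESVJ and 5732, 5449 and 5774 in E14, lower in liver than in both lines and with a line difference of 2.97. Igfbp2, a binding protein for both, read 7477 and 9983 in the livers, 6589, 6660 and 6953 in ESVJ and 7192, 7377 and 7375 in E14. The 95% intervals of its differences from both lines lay within 2-fold. Igfbp2 left that range after scaling on the array median (0.64, against 0.3 for the mean of both lines). The same held with the Abca1 +/- livers in place of the +/+ livers (-0.52). The fetal liver gene Afp read 150 and 184 in the livers and 64 to 141 in the ES arrays, with both livers above every ES array. It was not called (0.64), but was after scaling on the array median (0.92), after quantile normalisation (0.93) and without E14 2 (0.74).

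The pluripotency genes had the lowest median of the lists. Of 31 genes tested, 29 were lower in liver, 23 of them 4-fold or more, with a median of -3.95. Pou5f1 differed by -8.01 ± 0.16 from ESVJ and -7.42 ± 0.16 from E14, with adjusted p-values of 2.58e-12 and 3.23e-12 by limma. Pou5f1 passed the filter only through the ES arrays, so these p-values are descriptive. Dppa5a, an RNA-binding protein of undifferentiated cells, read 40 and 60.8 in the livers, 14562, 17938 and 17502 in ESVJ and 10397, 11088 and 9659 in E14, and Zfp42 (REX1) 5.53 and 16.2 in the livers, 5010, 4311 and 5041 in ESVJ and 2465, 2970 and 2545 in E14. Livers were below 100 and ES arrays above 2000 in all of these. Fgf4, the growth factor that OCT4 and SOX2 switch on together, read 482 and 346 in the livers, 3249, 4043 and 3501 in ESVJ and 1445, 1452 and 1525 in E14, lower in E14 than in ESVJ. Esrrb and Pecam1 were not called. Esrrb had means of 50.7 in liver, 283 in ESVJ and 51 in E14, so only ESVJ stood above the livers. The brightest probe set of Mtm1 (myotubularin) also ranked among the 20 widest ES-high genes, at 39 and 54.9 in the livers and from 9962 to 18420 (median 13133) in the 6 ES arrays, but its type can detect other transcripts and the other Mtm1 probe set gave 0.88 in the opposite direction.

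Cell division genes are given with the limit stated for the lists, since genes such as Bub1 and Top2a passed the filter only through the ES arrays. The 36 mitosis genes that passed it were all called lower in liver, 30 of them 4-fold or more (median -3.43). Cdc20, which activates the anaphase-promoting complex, read 224 and 306 in the livers and from 6072 to 8836 (median 7483) in the 6 ES arrays, the mitotic kinase Aurka 18.1 and 26.9 in the livers and from 996 to 1984 (median 1529) in the 6 ES arrays and the spindle checkpoint kinase Bub1 17.9 and 13 in the livers and from 789 to 1720 (median 1093) in the 6 ES arrays. DNA replication genes were lower in 37 of 39 cases (median -2.73). Topoisomerase Top2a read 8.82 and 10.8 in the livers, 2547, 2610 and 2592 in ESVJ and 1324, 1451 and 1087 in E14, with log2 differences of -5.97 ± 0.17 from ESVJ and -4.97 ± 0.17 from E14. The helicase subunits Mcm3 and Mcm4 read 235 and 254 in the livers and from 2836 to 4668 (median 3556) in the 6 ES arrays and 73 and 107 in the livers and from 1531 to 3087 (median 2124) in the 6 ES arrays. Mcm5, of the same helicase, had means of 220, 5422 and 4401 in liver, ESVJ and E14. Mcm10 and Rpa3 were not called, and Mcm6 was below the filter in all arrays. G1 regulators were lower in 15 of 18 cases, with a smaller median of -1.64, and 5 more were below the filter. Tfdp1, the partner of E2F factors, read 129 and 150 in the livers and from 2338 to 3995 (median 3095) in the 6 ES arrays. The inhibitor Cdkn1c, which is imprinted, read 91.4 and 94.8 in the livers, 1079, 837 and 864 in ESVJ and 2133, 1873 and 1917 in E14. Cdkn2b had means of 37.4, 50.3 and 685 and differed from E14 only.

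E2F factors drive many replication genes, and their site was searched as TTTGGCGC, TTTCCCGC, TTTCGCGC or TTTGCCGC on either strand. The Mcm5 promoter (chr8:75109259-75109558, plus strand, GRCm38.p6, RefSeq) is shown because it holds 2 overlapping matches, in capitals.
Mcm5: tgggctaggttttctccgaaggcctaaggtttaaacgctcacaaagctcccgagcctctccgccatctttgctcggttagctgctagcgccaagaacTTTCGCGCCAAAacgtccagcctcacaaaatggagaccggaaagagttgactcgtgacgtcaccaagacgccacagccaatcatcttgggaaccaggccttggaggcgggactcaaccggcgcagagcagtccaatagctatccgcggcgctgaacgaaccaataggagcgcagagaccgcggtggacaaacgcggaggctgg

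Such letters were in 55 of 774 ES-high promoters (7.11%), 10 of 430 liver-high promoters (2.33%), 213 of all 4789 tested (4.45%) and 2.32% of the whole table.

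Nucleotide, RNA and ribosome supply were lower in liver as well. Nucleotide synthesis was lower in 14 of 21 tested genes (median -1.46), against 43.1% lower over all genes. The ribonucleotide reductase subunit Rrm1, which makes deoxynucleotides, read 12 and 26.7 in the livers and from 1100 to 1864 (median 1481) in the 6 ES arrays, and Cad, which starts pyrimidine synthesis, 35.4 and 24.2 in the livers and from 1139 to 1719 (median 1436) in the 6 ES arrays. Shmt1 was the gene called higher in liver, at means of 2956, 1590 and 1097. Ribosome assembly genes were lower in 28 of 29 cases (median -2.69), with nucleolin (Ncl) at 418 and 330 in the livers, 15712, 17158 and 19728 in ESVJ and 8015, 9603 and 10940 in E14. RNA splicing and hnRNP genes were lower in 35 of 37 cases (median -2.49), with Hnrnpd at 160 and 70.3 in the livers and from 2989 to 4272 (median 3493) in the 6 ES arrays. Snrpb2 was the gene called higher, at means of 318, 184 and 146, a call lost without liver 1, ESVJ 1 or ESVJ 3. Translation factors were lower in 21 of 29 cases and higher in 2 (5 after scaling on the array median, 1 without liver 2). Poly(A)-binding protein (Pabpc1) read 955 and 800 in the livers, 13176, 11492 and 14384 in ESVJ and 10427, 10902 and 12030 in E14, with log2 differences of -3.84 ± 0.16 from ESVJ and -3.62 ± 0.16 from E14.

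Chromatin genes were lower in liver in 28 of 32 tested cases (median -2.54). The remodelling helicase Hells, which DNA methylation needs, read 4.33 and 29.2 in the livers, 2481, 1946 and 2841 in ESVJ and 819, 842 and 716 in E14, the heterochromatin protein gene Cbx5 15.3 and 10.4 in the livers and from 732 to 1138 (median 955) in the 6 ES arrays and the Polycomb subunit Eed 243 and 264 in the livers and from 2434 to 4314 (median 3171) in the 6 ES arrays. Bmi1, Hmgb3, Kdm1a and Mbd2 were not called. Among 16 imprinted genes tested, 11 were lower in liver and 0 higher (1 higher after quantile normalisation, 7 lower without probe sets that can detect several genes), with Meg3 at 56.2 and 72.8 in the livers, 1202, 1228 and 940 in ESVJ and 1345, 1876 and 1869 in E14 and Phlda2 at 153 and 64.1 in the livers and from 1450 to 2353 (median 1998) in the 6 ES arrays. Gnas passed with opposite signs, at means of 5630, 3567 and 10420.

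Cytoskeletal genes were lower in 26 of 35 tested cases (median -2.34), higher in 2 and opposite between the lines in 2. The microtubule destabiliser stathmin (Stmn1) read 189 and 354 in the livers and from 5540 to 9991 (median 7574) in the 6 ES arrays, and β-tubulin Tubb5 1889 and 1669 in the livers and from 13145 to 17323 (median 14094) in the 6 ES arrays. The 2 higher genes were Actb and Tpm3. The Actb probe set used here read 4546 and 1223 in the livers, 642, 320 and 2347 in ESVJ and 413, 461 and 247 in E14, with 1 ESVJ array inside the range of the livers, and its call was lost without liver 1 (1.14 on the log2 scale, against 2.07 for the mean of both lines) and without any of 5 single ES arrays (1.76 to 2.15). Without ESVJ 2, 0 genes of the list were called higher.

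Related enzymes with different tissue habits were read as pairs, 1 member known from adult liver and the other from many or growing tissues. Of the genes in the 23 pairs, 31 were tested.

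**Figure D4:**
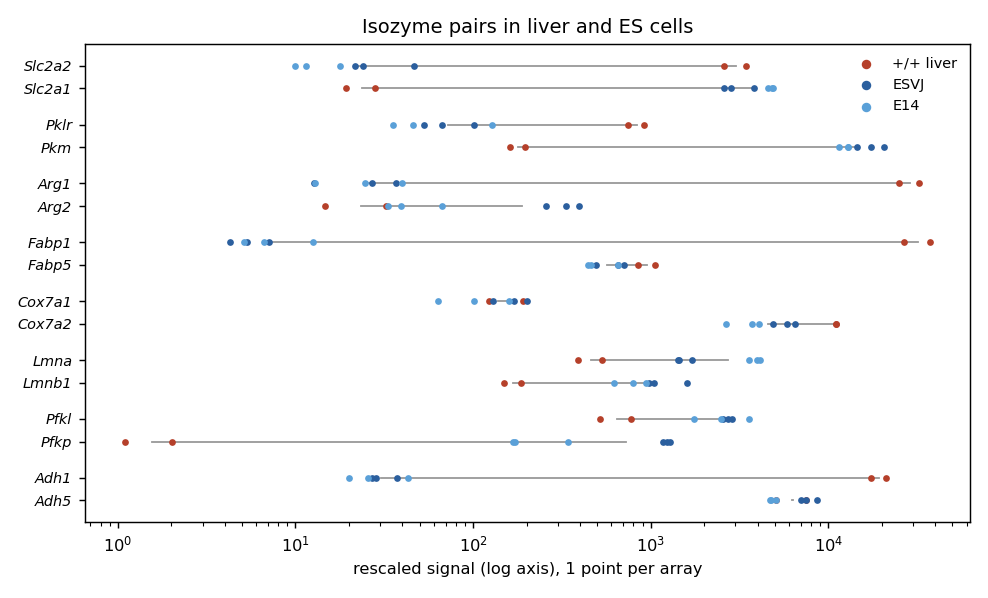
Rescaled signal (log axis) of both members of 8 pairs in each of the 8 arrays, with a line from the liver mean to the mean of both ES lines. Slc2a2 and Slc2a1, and Pklr and Pkm, lie on opposite sides in liver and ES cells, Pfkl and Pfkp are both lower in liver, and Adh5 overlaps.

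Glucose transporters and glycolytic enzymes differed by form. The low-affinity transporter Slc2a2 (GLUT2) read 3445 and 2587 in the livers, 21.7, 24.1 and 46.4 in ESVJ and 17.7, 11.4 and 9.89 in E14, while Slc2a1 (GLUT1) read 28.2 and 19.2 in the livers, 3801, 2827 and 2574 in ESVJ and 4585, 4904 and 4849 in E14 and Slc2a3 (GLUT3) 375 and 255 in the livers and from 3027 to 9265 (median 5275) in the 6 ES arrays. Pyruvate kinase of liver (Pklr) read 746 and 919 in the livers, 67.2, 53.2 and 101 in ESVJ and 35.5, 128 and 46.1 in E14 and the form of growing cells (Pkm) 162 and 195 in the livers, 14470, 17292 and 20505 in ESVJ and 12895, 12952 and 11548 in E14. Hexokinase 2 (Hk2) read 51.4 and 50 in the livers and from 1404 to 2637 (median 1860) in the 6 ES arrays. In these genes liver and ES arrays never overlapped. The log2 differences were 3.05 ± 0.35 from ESVJ and 3.19 ± 0.35 from E14 for Pklr and -6.36 ± 0.17 from ESVJ and -5.89 ± 0.17 from E14 for Pkm. Phosphofructokinase did not follow the pattern, since both Pfkl, the liver form, and Pfkp were lower in liver, at 772 and 519 in the livers, 2567, 2710 and 2851 in ESVJ and 2487, 3596 and 1753 in E14 for Pfkl and 1.1 and 2.03 in the livers and from 168 to 1280 (median 761) in the 6 ES arrays for Pfkp. Aldoa was also lower (1801 and 1244 in the livers and from 7064 to 10690 (median 8562) in the 6 ES arrays). Over the whole glycolysis list 9 of 17 genes were lower and 0 higher (2 higher after scaling on the array median, 1 without liver 1 or after quantile normalisation), and Pgk1, Tpi1 and Ldha were among the 8 not called. Over all genes 43.1% were lower and 21.4% higher, so the lower count of this list stands little above that of all genes.

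Of the other pairs named here, some split at least in part and others had both members on the same side. Arg1 was higher in liver, whereas Arg2 read 32.3 and 14.7 in the livers, 256, 397 and 335 in ESVJ and 33.2, 66.8 and 39.4 in E14 and was lower than ESVJ but not called against E14. Fabp1 and Fabp5 were both higher in liver, Fabp5 by 0.61 and 0.85 (a call lost without liver 2 or ESVJ 1, at 0.58 and 0.65 for the mean of both lines), and Fabp3, the heart form, was lower (81.8 and 119 in the livers and from 608 to 1269 (median 811) in the 6 ES arrays). Alas1, the housekeeping start of haem synthesis, and Alas2, its erythroid form, were both higher in liver, at 6578 and 10530 in the livers and from 758 to 968 (median 768) in the 6 ES arrays and 601 and 737 in the livers and from 12.2 to 52 (median 16.3) in the 6 ES arrays. Transferrin receptor 2 (Tfr2), a hepatocyte iron sensor, read 1569 and 1399 in the livers and from 36.6 to 133 (median 80.9) in the 6 ES arrays, while Tfrc overlapped at 2049 and 2856 in the livers, 2050, 2444 and 2697 in ESVJ and 1784, 1516 and 1728 in E14 and its other probe set gave -2.09. Both lamin genes were lower in liver on their brightest probe sets, although a second Lmna probe set was at 0.00. Scd1, the stearoyl-CoA desaturase of liver, read 13457 and 6028 in the livers and from 250 to 421 (median 351) in the 6 ES arrays, and its relative Scd2 was restricted to ES cells. Scd1 was added after its values were seen.

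Genes with the same high signal in both were sought with the interval of the difference, since a missed threshold does not show equal levels. A gene qualified when every one of the 8 arrays was at 2000 or more and the 95% interval of both differences lay within 2-fold. Of 192 genes (3.24%) at 2000 or more in all 8 arrays, 68 (1.15% of those tested) also met the interval. Just inside the signal limit were Dctn3 (2010) and Psmc2 (2040), and just outside were Ei24 (1940) and Vps35 (1910).

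Rps10, of the small ribosomal subunit, read 16951 and 25064 in the livers, 15987, 20125 and 17496 in ESVJ and 14920, 14959 and 13663 in E14, with 95% intervals of -0.19 to 0.61 from ESVJ and 0.1 to 0.91 from E14. Ran, the GTPase of nuclear transport, read 12929 and 16225 in the livers, 14857, 18948 and 23091 in ESVJ and 12818, 13335 and 12844 in E14, with intervals of -0.78 to 0.05 from ESVJ and -0.26 to 0.57 from E14. Both overlapped between liver and ES cells. Arf1, a GTPase of vesicle traffic, read 10363 and 10336 in the livers, 8496, 9680 and 9849 in ESVJ and 10895, 11065 and 10794 in E14, with intervals of -0.16 to 0.46 from ESVJ and -0.39 to 0.23 from E14. The ATP synthase subunit Atp5a1 read 8780 and 8555 in the livers, 9212, 9070 and 9691 in ESVJ and 7718, 7172 and 8211 in E14, the proteasome subunit Psmb4 8979 and 10452 in the livers, 7585, 8352 and 7550 in ESVJ and 7148, 6620 and 6842 in E14, and the spliceosome protein Snrpb 7318 and 7296 in the livers, 7618, 8992 and 10695 in ESVJ and 8845, 8514 and 8667 in E14. Hspa8, the constitutive HSC70 chaperone, read 7584 and 9617 in the livers, 13013, 12882 and 11596 in ESVJ and 9675, 8933 and 9718 in E14. Psmb4 and Rps10 passed the test against E14 with a small difference inside the interval (adjusted p = 0.0076 and 0.0252 by limma), so the class holds genes of like level and not only genes without a call. Single arrays decided some of these genes: without liver 1, Rps10 was at 0.64 against 0.36 and left the interval, as it did without E14 1 or E14 2 (0.37 each), and without liver 2 the same held for Ran (-0.27 against -0.1) and Hspa8 (-0.52 against -0.34). After quantile normalisation Arf1 was at -0.84 and Atp5a1 at -0.76, outside it.

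The Ran promoter (chr5:129019906-129020205, plus strand, GRCm38.p6, RefSeq) is shown as the counterpart of Alb: it has 58 CG, in capitals, and Alb has 3.
Ran: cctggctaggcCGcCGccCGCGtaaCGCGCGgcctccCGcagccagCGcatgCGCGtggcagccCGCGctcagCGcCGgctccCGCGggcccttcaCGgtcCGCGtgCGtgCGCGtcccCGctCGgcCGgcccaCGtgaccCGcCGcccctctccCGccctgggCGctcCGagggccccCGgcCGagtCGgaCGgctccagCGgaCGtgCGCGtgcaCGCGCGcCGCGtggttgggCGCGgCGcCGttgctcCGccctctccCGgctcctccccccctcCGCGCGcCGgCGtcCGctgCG

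Proteasome subunits made up 10 of the 68 genes, with 32 tested: 17 were not called, 11 were lower and 4 higher in liver (median -0.11; 2 higher without liver 2). Ribosomal proteins made up 6, with 25 tested: 17 not called, 5 lower, 3 higher (median 0.31; 6 higher without liver 1 and 0 without liver 2). The lower group included Rpl13a at 1615 and 2901 in the livers, 4988, 6197 and 5797 in ESVJ and 6228, 6093 and 5034 in E14. Rpl22 was lower and Rpl32 higher on low probe sets, and a second probe set of Rpl22 gave 0.68 in the opposite direction. The respiratory chain and ATP synthase leaned to liver, with 38 of 52 genes higher, 1 lower and a median of 1.24, and 21 higher with the Abca1 +/- livers in place of the +/+ livers. With those livers 0 proteasome genes were higher, and 1 ribosomal protein gene was higher and 9 were lower. Sdhb, of complex II, read 11200 and 11925 in the livers, 2477, 3208 and 2858 in ESVJ and 1891, 2382 and 2449 in E14, with log2 differences of 2.02 ± 0.17 from ESVJ and 2.36 ± 0.17 from E14, and Ndufb9, of complex I, 11595 and 16213 in the livers and from 1754 to 2262 (median 1844) in the 6 ES arrays. Scaling moved these middle groups. After scaling on the array median, 11 proteasome genes were higher and 5 lower, and 14 ribosomal protein genes were higher and 3 lower, whereas quantile normalisation gave 16 lower ribosomal protein genes. Of the respiratory chain genes 0 and 2, respectively, were then lower. The same scalings left 44 and 34 of the 68 genes of the same high signal within the rule.

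Chaperones went in both directions. Hsp90aa1, the inducible cytosolic HSP90, read 1410 and 871 in the livers, 16687, 17155 and 25551 in ESVJ and 11395, 13724 and 13373 in E14, and the chaperonin subunit Cct8 575 and 472 in the livers and from 2616 to 3627 (median 3027) in the 6 ES arrays. In the endoplasmic reticulum, the folding enzyme Ppib read 8050 and 8043 in the livers, 1682, 2036 and 2176 in ESVJ and 1643, 1572 and 1656 in E14, and Pdia3, Pdia4 and P4hb were also higher in liver. Over the list of 28 tested genes, 16 were lower and 4 higher, against 43.1% lower and 21.4% higher over all genes. The 4 higher genes were those of the endoplasmic reticulum named here. Hspa5 and Hsp90b1, of the same compartment, were among the genes of the same high signal.

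Cholesterol synthesis was mixed, with 6 of 16 genes higher in liver, 3 lower and 7 not called (median 0.18). Without liver 1 there were 3 higher, without liver 2 there was 1 lower and without E14 3 there were 5, and after scaling on the array median 0 were lower. Ebp, a sterol isomerase, read 3182 and 2704 in the livers, 267, 320 and 298 in ESVJ and 386, 411 and 355 in E14, and Sc5d 1273 and 711 in the livers and from 74 to 157 (median 115) in the 6 ES arrays. Hmgcs1, at the start of the pathway, was lower at 898 and 804 in the livers, 1831, 1756 and 1253 in ESVJ and 2130, 2099 and 1385 in E14 (not called after scaling on the array median), as were Sqle (means 588, 1226 and 1650) and Lss (169, 324 and 390). In the Abca1 +/- livers Hmgcs1 read 1703 and 2927, and its difference turned to 0.38 with those livers. Lysosomal cathepsin H (Ctsh) read 6694 and 9432 in the livers and from 13.2 to 82.9 (median 39.5) in the 6 ES arrays and Lamp2 4858 and 4508 in the livers and from 56.1 to 190 (median 102) in the 6 ES arrays, both higher in liver, whereas the proton pump subunit Atp6v1b2 was lower (720 and 698 in the livers and from 3277 to 4325 (median 3479) in the 6 ES arrays).

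Of 15 common reference genes tested, 3 were higher in liver (6 after scaling on the array median, 1 with each line fitted alone with the livers), 5 lower and 7 not called, against 21.4% higher and 43.1% lower over all genes. Tbp read 107 and 56.1 in the livers and from 360 to 703 (median 489) in the 6 ES arrays and Ywhaz 939 and 428 in the livers and from 2864 to 5752 (median 3725) in the 6 ES arrays, both lower in liver, and B2m was higher as given above. Hprt, of purine salvage, read 1917 and 2985 in the livers, 3044, 3116 and 2789 in ESVJ and 54.5, 76.6 and 54.6 in E14: it did not pass against ESVJ, and against E14 it differed by 4.7 ± 0.2, with no overlap between the lines.

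The ES lines disagreed on 47 genes, which passed against both lines with opposite signs. Keratins 18 and 8, which form the filaments of simple epithelia and of hepatocytes, stood out. Krt18 read 1935 and 1693 in the livers, 231, 297 and 264 in ESVJ and 8236, 7701 and 9903 in E14, so that the livers lay between the lines. Its difference was 2.64 ± 0.17 from ESVJ and -2.22 ± 0.17 from E14, and E14 exceeded ESVJ by 4.87 ± 0.15. Krt8 read 1403 and 1169 in the livers, 451, 434 and 448 in ESVJ and 10061, 9291 and 10245 in E14, with a line difference of 4.37 ± 0.13. Acta1, the skeletal muscle actin, read 644 and 505 in the livers, 194, 124 and 127 in ESVJ and 4229, 3261 and 3938 in E14. Bmp1, a procollagen protease, read 491 and 416 in the livers, 55.7, 101 and 44.4 in ESVJ and 643, 869 and 850 in E14, with a second probe set at -0.17, and the cell adhesion gene Cdh2 (N-cadherin) 316 and 294 in the livers, 69.2, 46.1 and 66.9 in ESVJ and 561, 535 and 997 in E14. Septin4 and Anxa5 had the same order, with E14 above liver and ESVJ below. D13Ertd608e had the reverse order, at 103 and 63.2 in the livers, 547, 682 and 582 in ESVJ and 40.3, 19.5 and 46.2 in E14. Requiring 2-fold in both lines left 8 of the 47 genes, and without liver 1 there were 27.

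Line differences also ran within the ES-high genes, at a share near that of all probe sets. Of 937, 312 passed the test of E14 against ESVJ (31.9% of all probe sets tested did), with 63 over 2-fold higher in E14 and 42 over 2-fold higher in ESVJ. Among the 518 liver-high genes, 108 passed it. Cldn4, a tight junction protein, read 87.7 and 41.4 in the livers, 255, 319 and 352 in ESVJ and 5552, 5468 and 5353 in E14 and Acta2 80.3 and 128 in the livers, 787, 631 and 540 in ESVJ and 4045, 3626 and 4508 in E14. Both lines were above the livers, but by very different steps. Pfkp and Hells had the reverse order, with ESVJ above E14.

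Both livers were close for most liver-high genes: 486 of 518 lay within 2-fold of each other, 21 were over 2-fold higher in liver 1 and 11 in liver 2. Those named here were chosen after their values were seen. Sult2a2, a sulfotransferase, read 7419 and 1283 in livers 1 and 2, Serpina6, which carries corticosteroids, 6715 and 1628, and Cyp17a1 2884 and 585. Higher in liver 2 were Saa3 (451 and 1675), Hsd3b5 (474 and 2113) and Ces1c (5240 and 18788). Saa3 is an acute phase protein and Hsd3b5 a steroid dehydrogenase. All of them were above the ES arrays in both livers.

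Liver tissue holds other cells, and their markers are summed over all members of each list on the array. The counts of tested genes leave out members below the signal filter. Among those left out, Adgre1 was higher in the livers (141 and 202, at most 20.2 in ES arrays). Cybb (58.4 and 72.2 against 16.8 to 82.2), Cd79b (55.5 and 53.3 against 19.8 to 101) and Vwf (25.1 and 32 against 10.1 to 64.9) overlapped with the ES arrays. In these bulk samples fewer cells of a type and less RNA per cell cannot be told apart. The summed signal of 7 erythroid genes was 17037 and 18834 in the livers and 572 to 831 in ES arrays. Most of the liver sums came from 1 gene, the α-globin gene Hba-a1. It read 15652 and 17396 in the livers and from 136 to 226 (median 168) in the 6 ES arrays. Of 5 tested erythroid genes, 2 were higher in liver and 3 were not called (median 0.63). Only 1 was higher without probe sets that can detect several genes, or at a minimum mean signal of 200. The summed signal of 17 Kupffer cell and macrophage genes was 7682 and 9228 against 1365 to 2171, with 8 of 11 tested genes higher in liver, among them Clec4f, a Kupffer cell lectin, at 1275 and 1986 in the livers and from 27.4 to 76.3 (median 37.1) in the 6 ES arrays. For 15 endothelial genes the sums were 4171 and 4988 against 1940 to 2909, and 4 of 9 tested genes were higher, with Stab1 at 616 and 570 in the livers and from 33.5 to 92.5 (median 59.5) in the 6 ES arrays. That count was 1 without liver 2, 0 at a minimum mean signal of 200 and 7 with the Abca1 +/- livers in place of the +/+ livers. For 17 stellate cell and fibroblast genes they were 12235 and 13347 against 5914 to 10087. Decorin (Dcn) read 7094 and 7665 in the livers and from 19.4 to 108 (median 73.6) in the 6 ES arrays, and 4 of 12 tested genes were higher in liver (2 without liver 2, 1 at a minimum mean signal of 200), whereas Acta2, Timp1 and S100a4 were lower. For 14 lymphocyte genes the sums were 2408 and 3469 against 766 to 1275, with 6 of 7 tested genes higher (3 without liver 2, 2 at a minimum mean signal of 200). For 7 bile duct genes they were 357 and 656 in the livers, 1086 to 1176 in ESVJ and 9660 to 9873 in E14, where Krt19 reached 2462, 2764 and 2462. The part of these cells in the results was not tested.

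The other 8 arrays gave the same contrast in samples that the calls had not used. There, 1531 of 7849 probe sets (19.5%) were higher in Abca1 +/- liver than in both mutant ES lines and 2814 (35.9%) were lower. Of the 1649 probe sets higher in +/+ liver, 1606 were tested there and 1199 (74.7%) were called higher again, with 0 called lower. Of the 3250 lower, 3231 were tested and 2510 (77.7%) were called lower again, with 8 called higher. Those 8 were Eif4ebp2, Col18a1 (2 probe sets), Epn1, Zfp36l2, Nav2, Mt1 and 1 probe set without a gene name. By class, 502 of 507 liver-high genes tested there and 909 of 937 ES-high genes were called the same way, but only 25 of the 68 genes of the same high signal met the interval. The 3′ to 5′ ratio of β-actin was 8.23 and 2.14 in these livers, and its part in the difference was not tested.

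Promoter composition, which the calls had not used, differed between the classes. Among the genes with an entry in RefSeq's table of promoters, and taking the first promoter listed, the median number of CG in 300 bases was 8 for 430 liver-high genes, 24 for 774 ES-high genes, 24 for 59 genes of the same high signal and 21 for all 4789 tested genes. Genes restricted to liver had a median of 4 (156 genes). Promoters with at most 5 CG were 40.5% of the liver-high, 70.5% of the liver-restricted, 4.13% of the ES-high and 11.1% of all tested. The letters TATAAA on either strand were in 17.2% of liver-high and 25.6% of liver-restricted promoters, in 6.07% of ES-high and in 8.58% of all tested. Counted only from 20 to 40 bases before the start, they were in 5.58% of liver-high, 4.49% of liver-restricted, 1.42% of ES-high and 2.28% of all tested promoters. In the whole table this share was 2.22%. Over all 27025 promoters in the table, tested or not, the median was 7 CG, 43.6% had at most 5 and 14.2% held TATAAA. In CG the liver-high promoters were thus close to the whole table, and the tested genes as a set were richer in CG. The letters CCAAT showed little contrast, at 44.2%, 41.9% and 39.2% in liver-high, ES-high and all tested genes. These shares are descriptions, and 979 of the tested genes have more than 1 promoter in the table.

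**Figure D5:**
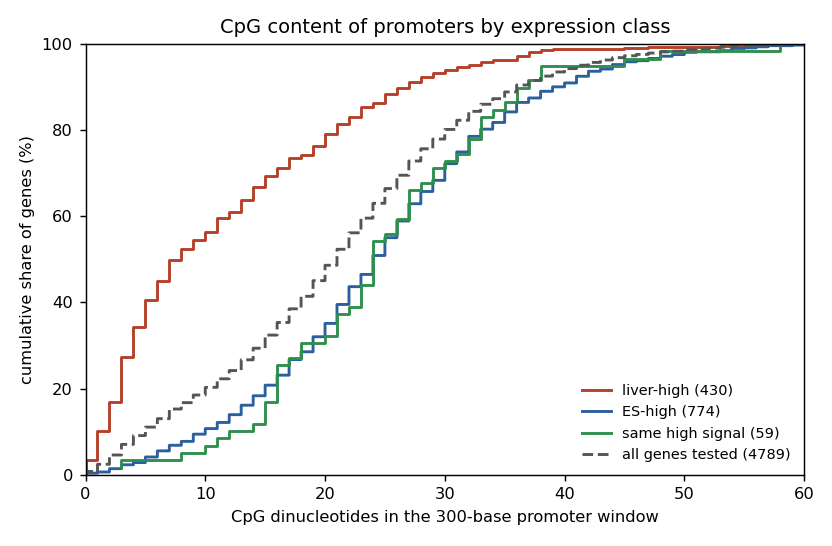
Cumulative share of genes (%) by the number of CG dinucleotides in the 300-base promoter window, for liver-high (430), ES-high (774), same high signal (59) and all tested genes (4789). The liver-high curve rises first, with 40.5% of genes at 5 CG or fewer, while the ES-high curve and that of the same high signal lie to the right of that of all tested genes up to 30 CG.

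Liver-high genes often lay side by side. Along the gene order of GRCm38.p6, among the genes measured, 168 of 518 (32.4%) adjoined another liver-high gene, and 16.3% of all placed genes had a liver-high neighbour. For the ES-high genes these shares were 29.9% and 28.9%. The longest run held 8 genes on chromosome 12, with Serpina10, Serpina6, Serpina1b, Serpina1c, Serpina1e, Serpina12 and Serpina3n next to Ifi27. Runs of 4 held Apoc2, Apoc4, Apoc1 and Apoe on chromosome 7, Cyp2c29, Cyp2c39, Cyp2c38 and Cyp2c70 on chromosome 19, and Gstm6, Gstm3, Gstm2 and Gstm1 on chromosome 3. Most of these runs hold relatives of 1 gene family, whose probe sets may detect each other's transcripts. On the ES side the share was near that of all placed genes, and the longest runs held 4 genes each: Gdf3, Dppa3, Nanog and Slc2a3 on chromosome 6, and Otud4, Abce1, Smarca5 and Gab1 on chromosome 8.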

How the data were processed

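RNA of each sample was hybridised to an Affymetrix U74Av2 array. The authors deposited 1 intensity per probe set, made with MAS 5.0 at its default settings per the labels, without detection calls; the deposited 2% trimmed mean was 1501 or 1502 on the arrays. Here each array was rescaled to a trimmed mean of 500 and log2(signal + 32) was taken. Probe sets with a mean of 100 or more over the 8 arrays were kept. A model with 3 groups (liver, ESVJ, E14; 5 residual degrees of freedom) was fitted with limma 3.58.1 in R 4.3.3, with an intensity trend and Benjamini-Hochberg adjustment, and a call needed an adjusted p under 0.05 and the same sign against both lines. The spread of 2 livers and 3 arrays per line limits the precision.

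Of 12488 probe sets, 10833 had 1 gene symbol, 396 several and 1259 none. The probe sets with 1 symbol covered 8251 genes. Of these, 5924 were tested, each represented by its brightest tested probe set. Named were Apob, Mt2, Pter and Cdk4, the 20 widest differences each way, the 15 brightest genes of the same high signal, up to 4 genes per list by p-value, 23 pairs of related enzymes and 8 genes on which the lines disagreed. Other genes named were chosen after their values were seen. The members and the 41 gene lists were chosen with earlier results of these data known. On simulated data for the 7802 probe sets, the script found 0%, 50%, 96% and 96% of changes of 0.5, 1, 2 and 3 on the log2 scale, called 1 unchanged probe set and gave 0 wrong signs. The simulation changed only 50 probe sets per size, gave both ES lines the same mean and gave all groups the same spread. In the data 62.8% of probe sets were called and 31.9% differed between the lines. The simulated shares therefore do not give the power or the error rate of the calls made here. Alternatives covered scale, normalisation, pseudocount, filter, variance model, samples in the fit, probe sets, fold, interval and each array left out.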

Additional observations from a re-analysis of the deposited data

Results flagged for a closer look

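Liver was called against both wild-type lines, ESVJ and E14, with opposite signs on 47 genes. Such calls place the livers between the lines, so a difference of E14 from ESVJ was built into the choice. The test of that difference passed in 2492 of all 7802 probe sets (31.9%). For the genes chosen here its p-values describe the size of the difference and give no separate support. Among these 47 genes, the widest differences of E14 from ESVJ on the log2(signal + 32) scale, with limma's adjusted p, were 4.87 for the keratin gene Krt18 (7.08e-10), 4.43 for the muscle actin gene Acta1 (1.29e-08), 4.37 for the keratin gene Krt8 (7.08e-10), -3.26 for D13Ertd608e (1.15e-06), 3.08 for the protease gene Bmp1 (1.23e-06), 3.0 for Septin4 (5.36e-06), 2.93 for the cadherin gene Cdh2 (2.8e-06) and 2.93 for the annexin gene Anxa5 (1.17e-07). In each gene all 3 arrays of one line lay on the other side of both livers from all 3 arrays of the other line. The choice of the genes favoured this order. Feeders, RNA isolation and line differ together between ESVJ and E14 and cannot be told apart.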

How the results depend on the processing

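The calls of probe sets, the liver-high and the ES-high counts stayed within 1.5 times of their values under most alternatives run. The ES-high genes fell from 937 to 601 with a pseudocount of 100 and to 330 when 8-fold was required. Genes of the same high signal went from 68 to 166 at a signal minimum of 1000 and to 7 with an interval within 1.5-fold. The genes on which the lines disagree went from 47 to 8 when 2-fold was required in both lines. Leaving out 1 array at a time gave 1381 to 1640 probe sets higher and 3056 to 3192 lower in liver, 485 to 524 liver-high genes, 916 to 981 ES-high genes, 60 to 71 genes of the same high signal and 27 to 47 genes on which the lines disagree, with 27 without liver 1. Where 1 liver was left out, the other was assumed to vary like the ES groups. With the Abca1 +/- livers in place of the +/+ livers, 3 named genes that had been called changed sign, Hmgcs1 to 0.38, Mt1 to 1.34 and Mt2 to 0.58, as did 10 that had not been called, such as Rpl10a (0.3 to -1.4). Another 7 named genes lost their call and 12 of the same high signal left the interval. After scaling on the array median 4 named genes lost their call and 7 left the interval, and after quantile normalisation 4 and 12 did. No paired analysis was possible because the labels give no replicate numbers that the groups share. Signals near the floor, and changes under 2-fold, are poorly resolved by 2 livers.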

Other observations

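Probe sets of 1 gene did not always give the same direction. Of 964 genes with more than 1 tested probe set, 28 had probe sets called in opposite directions. The brightest probe set of Rps4x, a ribosomal protein gene, was at -1.02 and its other at 1.13, and for Polr2a, the large subunit of RNA polymerase II, the values were -2.7 and 0.9. These genes were chosen after their values were seen.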
